A study of Homo sapiens with 6 samples.

Results

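The RNAs described here are the expressed long noncoding RNAs of PC-9 cells that carry a LINC or SNHG symbol, together with MALAT1 and NEAT1. A row of the deposited count table was taken where its symbol starts with LINC or SNHG and a number, or is MALAT1 or NEAT1, and its raw counts summed over all 6 samples reached at least 100. Of 26485 symbols in the table, 903 have such a name, 474 of these have no count in any sample, and 153 met the rule. They are 133 LINC RNAs, 18 SNHG RNAs, MALAT1 and NEAT1. The members were thus chosen by their raw counts summed over both groups, of which shControl held the larger part, so that an RNA higher in shControl reached the threshold more easily. In 23 members the shControl counts alone reached 100 and those of shIFITM3 alone did not, and in 1 member, LINC01127, it was the reverse. The members just inside the threshold were LINC01144, LINC01537, LINC00471 and LINC00659 with summed counts of 101, 102, 104 and 105, and the RNAs just outside were LINC01094, LINC00957, LINC01484 and LINC01152 with 99, 95, 92 and 88.

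PC-9 is an established line from a human lung adenocarcinoma with an activating EGFR mutation. The shIFITM3 group stably expressed short hairpin RNA against IFITM3, which encodes a membrane protein induced by interferon that holds back viruses entering by endosomes. The shControl group was PC-9 with a stable control hairpin, which the table's column names call ShEV, and each group had 3 biological replicates. The number and sequence of the hairpins, and whether each group is a pool of infected cells or 1 clone, are not stated in the labels, which name no drug treatment either.

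Long noncoding RNAs are transcribed and mostly spliced like messenger RNAs but are not known to direct the synthesis of a long protein. SNHG genes are hosts: their introns hold small nucleolar RNAs (snoRNAs), which guide the chemical modification of ribosomal RNA, or the related small Cajal body RNAs (scaRNAs), which guide that of spliceosomal RNA, while the spliced exons form the SNHG transcript itself. NEAT1 is the RNA scaffold of paraspeckles and MALAT1 an abundant RNA of nuclear speckles, both of them nuclear bodies. LINC symbols are given to intergenic transcripts by number, and a member whose function becomes known often gets another name. The libraries were made with a kit that captures RNA with a poly(A) tail, so the mature MALAT1 and the long form of NEAT1, whose ends are made without a standard tail, are represented only in part. The count table has entries for some snoRNAs and microRNAs of the host genes, such as SNORD22 of SNHG1 and MIR570 of LINC00969. Counts on these entries were not taken as the level of the mature small RNAs.

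The transcription start of many snoRNA hosts is known to lie at a C followed by a run of pyrimidines, as in ribosomal protein genes, so the starts of the hosts the results turn on are shown. Each line gives 10 bases before and 30 bases from the start that RefSeq's promoter table gives the gene, 5′ to 3′ on the gene's strand, from RefSeq on GRCh38.p14. For SNHG12 this start lies 1110 bases inside the outer end of the gene in RefSeq, so another start of this gene is not shown. Capitals mark the pyrimidines that follow without a break from a C at the start given. The first 3 hosts passed the test described next, and the other 4 have the runs of at least 5 pyrimidines.
SNHG1, minus strand, chr11:62855856-62855895: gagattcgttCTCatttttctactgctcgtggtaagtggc
SNHG17, minus strand, chr20:38435299-38435338: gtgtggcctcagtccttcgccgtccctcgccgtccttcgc
SNHG7, minus strand, chr9:136728155-136728194: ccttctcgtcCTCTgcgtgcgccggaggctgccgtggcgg
SNHG12, minus strand, chr1:28581844-28581883: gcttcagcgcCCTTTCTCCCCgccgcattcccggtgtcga
SNHG4, plus strand, chr5:139274091-139274130: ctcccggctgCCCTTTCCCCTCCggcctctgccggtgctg
SNHG19, minus strand, chr16:2155329-2155368: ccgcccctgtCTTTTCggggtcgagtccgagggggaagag
SNHG5, minus strand, chr6:85678704-85678743: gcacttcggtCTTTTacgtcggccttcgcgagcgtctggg

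The fall of IFITM3 went with the labels of all 6 samples. IFITM3 stood at 10.4, 12.9 and 9.75 CPM (counts relative to the size of the library) in the shIFITM3 samples, against 57.0, 60.5 and 62.8 CPM in the shControl samples. Its log2 fold change was -2.45 (SE 0.079), with a Benjamini-Hochberg adjusted p of 5.97e-18 in edgeR's quasi-likelihood test. CPM here is on library sizes scaled by the TMM method, and every log2 fold change is shIFITM3 over shControl. Total counts ran from 21965506 to 23852371 in the shIFITM3 libraries and were 21342028, 77228760 and 27493145 in the shControl libraries, so that shControl held 64.7% of all counts. A count of 0 in a library allows 3 counts, which is 0.126 to 0.137 CPM in the shIFITM3 libraries and 0.0389 to 0.141 CPM in the shControl libraries, counting error only. Low counts were even in 74.9% to 79.4% of genes with 1 to 20 counts, so counts may come in pairs and these limits may be too low. The epithelial markers KRT8, KRT18, KRT19, EPCAM and CDH1 were abundant, with summed levels of the 7 epithelial markers of 5555 to 5774 CPM in shIFITM3 and 7036 to 7116 CPM in shControl, while the lung adenocarcinoma markers NKX2-1 and NAPSA lay at or under 0.348 CPM in every library. Summed markers of fibroblasts were at 10.00 to 13.7 CPM in shIFITM3 and 9.16 to 10.5 CPM in shControl, nearly all of it COL1A1. Those of immune cells were at 73.0 to 78.3 and 63.3 to 70.9 CPM, nearly all of it CD68, and PECAM1 and VWF of endothelium summed to 0.783 to 1.21 and 2.62 to 3.11 CPM. COL3A1, PDGFRB, PTPRC and CD3E had at most 0.522 CPM in any library. No marker was at 0 in all 6 libraries, and the part of other cell types in the results was not tested. In bulk libraries such as these, fewer cells with an RNA and less of it per cell cannot be told apart.

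Of the 153 RNAs, 36 rose and 17 fell in the knockdown cells and 100 did not pass the test. The test was edgeR's quasi-likelihood test over all 14018 tested genes with a Benjamini-Hochberg adjusted p under 0.05, and all 153 members passed the filter on low counts. Among the members 34.6% passed, 23.5% higher and 11.1% lower in shIFITM3, and among all tested genes 56.1% passed, 27.7% higher and 28.4% lower. The members had few counts, with a median of 3.06 CPM against 26.1 CPM over all tested genes, and their median SE of the log2 fold change was 0.21 against 0.074. In the 5827 tested genes that are not members and lie between the 10th and 90th percentiles of the members' level, 43.5% passed, 25.4% higher and 18.1% lower. Those genes still lay higher than the members, with a median of 6.58 CPM and a median SE of 0.14. The median log2 fold change of the members was 0.16, beside 0.06 for those genes and -6.3e-05 for all tested genes.

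The share of RNAs called went up with their level. Among the 32 members under 1 CPM, 4 rose and 3 fell (21.9%), and among the 64 at 1 to 5 CPM, 12 rose and 5 fell (26.6%). Among the 37 members at 5 to 20 CPM 8 rose and 6 fell (37.8%), and among the 20 over 20 CPM 12 rose and 3 fell (75%). Genes that are not members passed in 21.6%, 34%, 51.3% and 69% at the same levels. The median SE of the members was 0.42, 0.26, 0.13 and 0.066 from the lowest level to the highest, so a change of given size was less detectable in the low RNAs, which are most of the list. At least a 2-fold change was called in 14 members (9.15%), 8 higher and 6 lower, beside 6.52% of all tested genes, 4.83% higher and 1.69% lower. Of the 6 lower, LINC01508, LINC01559, LINC00865 and SNHG22 met the rule through shControl. Of the 8 higher, LINC01127 met it through shIFITM3, each being the group in which the RNA is high. The rule thus bears on these counts, and their shares are no result about the members. In the 5827 non-member genes between the 10th and 90th percentiles of the members' level, the share with a 2-fold change was 9.83%. No overlap between the CPM ranges of shIFITM3 and shControl was found in 62 members (40.5%), beside 60.9% of all tested genes and 49.9% of those 5827 genes.

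**Figure D1:**
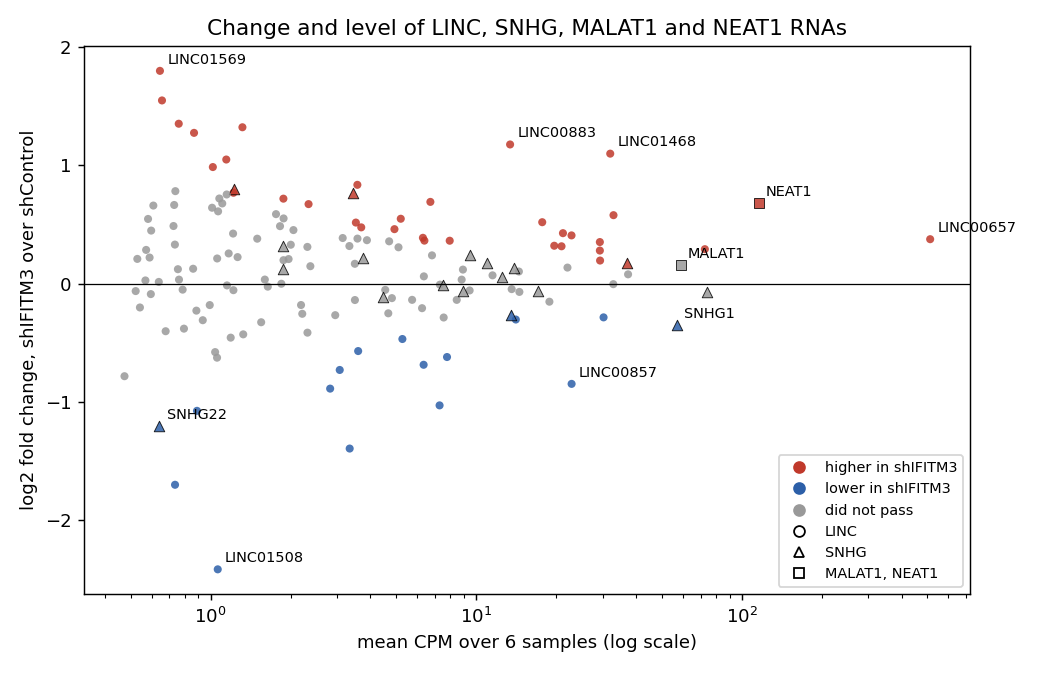
Log2 fold change, shIFITM3 over shControl, of each of the 153 RNAs against its mean CPM over the 6 samples (log axis), with circles for LINC, triangles for SNHG and squares for MALAT1 and NEAT1, coloured by the edgeR call. The largest changes in either direction lie among RNAs near 1 CPM, NEAT1 and LINC00657 have the highest CPM, and LINC00883, LINC01468 and LINC00857 combine a level over 10 CPM with a large change.

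NEAT1 was among the RNAs that rose. NEAT1 (chromosome 11, 65422798 to 65445540, GRCh38.p14) had 159.6, 125 and 143 CPM in the shIFITM3 samples, against 90.4, 89.3 and 87.0 CPM in the shControl samples. All 3 knockdown samples lay above all 3 controls, and they spread more widely than the controls. NEAT1 averaged 143 ± 17.3 CPM in shIFITM3 and 88.9 ± 1.72 CPM in shControl (SD, n = 3 each), which is 0.68 on the log2 scale (SE 0.058, edgeR adjusted p = 4.55e-10). The short and long forms of NEAT1 share the 5′ end and are counted together, so the table does not show which form rose. MALAT1 (chromosome 11, 65497738 to 65506516), its neighbour on the same strand, had 68.6, 53.2 and 64.1 CPM in shIFITM3 and 62.4, 54.6 and 50.6 CPM in shControl. These ranges overlapped, and the log2 fold change of 0.16 (SE 0.074) did not pass (edgeR adjusted p = 0.078). MALAT1 did pass without shIFITM3 replicate 2 (0.25, adjusted p = 0.00195) and without shControl replicate 1 (0.23, adjusted p = 0.0121), so single libraries decide this call. Per kilobase of exon, NEAT1 was at 6.27 CPM in shIFITM3 and 3.90 CPM in shControl, against 7.02 and 6.33 CPM for MALAT1.

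The genes of the proteins that build paraspeckles moved the other way from NEAT1. Of 15 paraspeckle protein genes 12 fell, none rose and 3 did not pass, with a median log2 fold change of -0.28 where that of all tested genes was -6.3e-05. PSPC1, a core paraspeckle protein that pairs with NONO, had 14.0, 15.04 and 14.98 CPM in shIFITM3, against 30.7, 28.9 and 30.6 CPM in shControl (-1.03 on the log2 scale, SE 0.075, edgeR adjusted p = 3.17e-11). FAM98A, whose protein is found in paraspeckles, had 35.2, 31.9 and 31.8 CPM in shIFITM3, against 75.6, 70.7 and 72.2 CPM in shControl (-1.14, SE 0.055, edgeR adjusted p = 1.33e-14). In both genes every knockdown sample lay below every control. SFPQ, which binds NEAT1 and is needed for paraspeckles to form, fell less, to 386, 387 and 389 CPM in shIFITM3, against 459, 478 and 477 CPM in shControl (-0.28), and SMARCA4, the ATPase of a chromatin remodelling complex, fell by 0.37. NONO (-0.04), the third member of the SFPQ and PSPC1 family, and DAZAP1 (-0.07) did not pass. Among nuclear speckle protein genes, those of the body that MALAT1 sits in, 10 of 11 fell and none rose, with a median of -0.25. The smallest p were those of the splicing factor genes U2AF2 (-0.43), SRSF2 (-0.42), PNN (-0.44) and SRSF7 (-0.33), with edgeR adjusted p values no higher than 1.01e-07. U2AF1 (-0.03) had 9.54, 14.1 and 16.7 CPM in shIFITM3 and 9.90, 19.8 and 9.60 CPM in shControl, ranges that overlapped. Apart from U2AF1, these genes averaged over 20 CPM, a level at which 69% of the genes that are not members passed, 30.5% higher and 38.4% lower in shIFITM3.

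**Figure D2:**
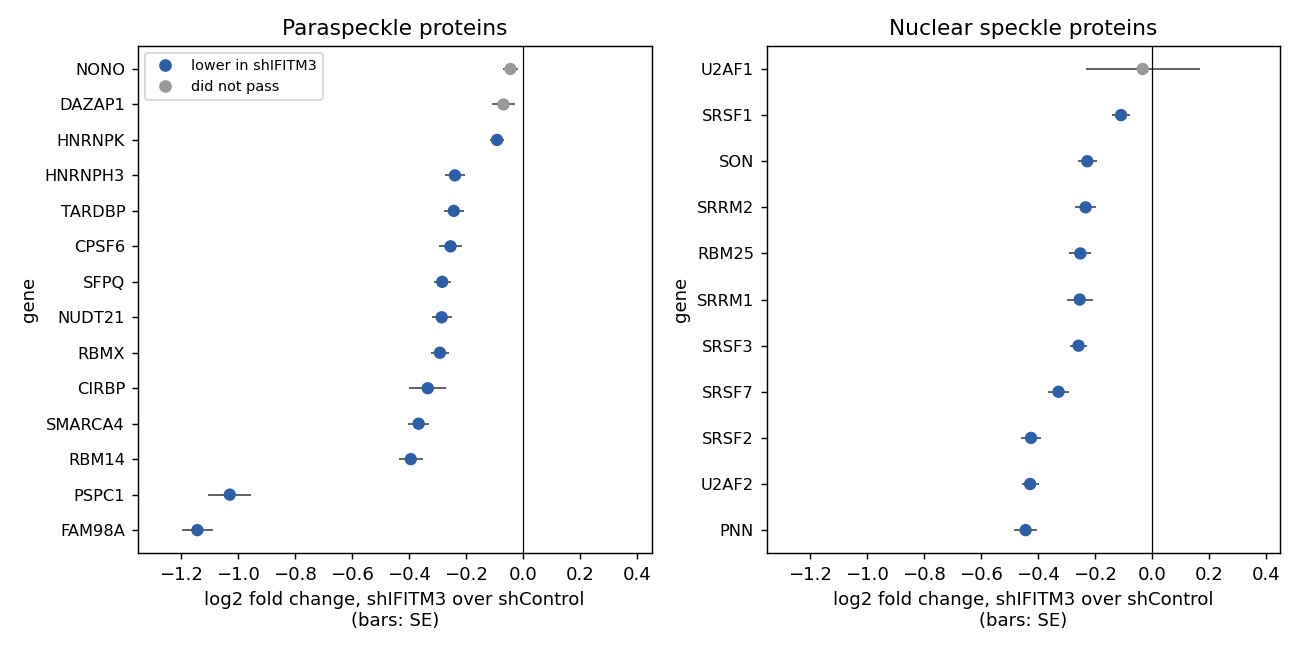
Log2 fold change, shIFITM3 over shControl, of paraspeckle and nuclear speckle protein genes, with bars of 1 SE from edgeR and genes that passed in blue. Every gene drawn lies below 0, NONO, DAZAP1 and U2AF1 without passing the test, and FAM98A and PSPC1 lie lowest.

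The SNHG hosts that were called divided evenly. Of the 18, 3 rose (SNHG7, SNHG20 and SNHG21), 3 fell (SNHG1, SNHG17 and SNHG22) and 12 did not pass, with a median log2 fold change of 0.09. The share called was 33.3%, 16.7% in each direction, beside 56.1% of all tested genes, 27.7% higher and 28.4% lower. At 5 to 20 CPM, where the SNHG median of 9.21 CPM lies, 51.3% of the genes that are not members passed. Their summed counts took 0.0283%, 0.0270% and 0.0274% of the library in shIFITM3 and 0.0282%, 0.0282% and 0.0285% in shControl. According to RefSeq, 14 of the 18 hold snoRNAs, 36 in all, and the other 4 (SNHG10, SNHG20, SNHG21 and SNHG22) hold a scaRNA each and no snoRNA. The 14 snoRNA hosts lay between 1.88 and 73.9 CPM, and 1 of them rose, 2 fell and 11 did not pass. The 4 scaRNA hosts lay between 0.641 and 3.44 CPM, and 2 rose, 1 fell and 1 did not pass.

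**Figure D3:**
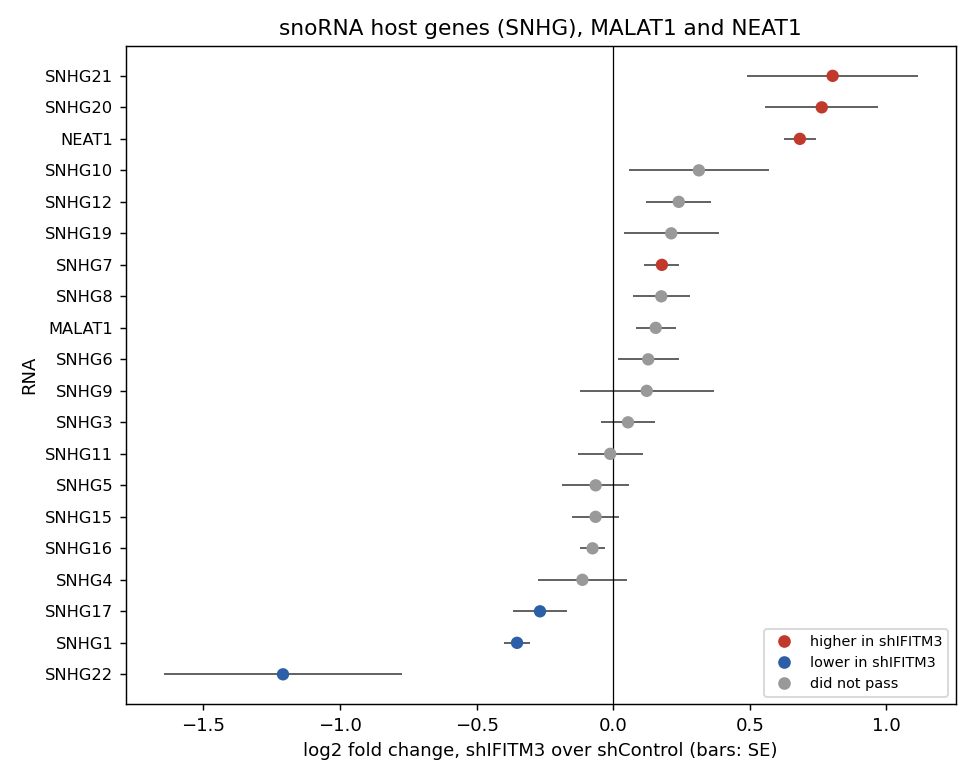
Log2 fold change, shIFITM3 over shControl, of the 18 SNHG RNAs, MALAT1 and NEAT1, with bars of 1 SE from edgeR, sorted from highest to lowest and coloured by the call. SNHG1 and NEAT1 stand farthest from 0 for the width of their bars, while SNHG21, SNHG20 and SNHG22 have large changes with wide bars.

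SNHG1 had the smallest p among the SNHG RNAs. SNHG1 (chromosome 11, 62851978 to 62855885, minus strand) is the richest host of the group, with 9 RefSeq snoRNA entries, SNORD22 and SNORD25 to SNORD31 among them, and 270 of its exon bases overlap snoRNA entries that the table counts as well. It had 48.5, 51.1 and 50.5 CPM in shIFITM3, against 62.2, 64.5 and 64.7 CPM in shControl, with no overlap and little spread in either group (-0.35 on the log2 scale, SE 0.049, edgeR adjusted p = 1.52e-06). SNHG17 (chromosome 20, 38420588 to 38435328), host of SNORA71 family members, had 12.7, 10.8 and 13.3 CPM in shIFITM3, against 14.8, 15.2 and 14.2 CPM in shControl (-0.27, edgeR adjusted p = 0.0234). SNHG7 (chromosome 9, 136724594 to 136728184), host of SNORA17A and SNORA17B, had 42.7, 39.6 and 35.9 CPM in shIFITM3, against 35.8, 34.4 and 34.4 CPM in shControl (0.18, edgeR adjusted p = 0.0216). The groups did not overlap in either gene, but nearly touched in SNHG7, which shares exon bases with FAM69B on the opposite strand. The SNHG17 call ended without shIFITM3 replicate 2 or shControl replicate 2, and the SNHG7 call without shIFITM3 replicate 1, shControl replicate 2 or shControl replicate 3, with edgeR adjusted p up to 0.135 and 0.17. SNHG16, the SNHG RNA with the highest CPM and host of 3 snoRNAs, had 73.2, 71.5 and 71.1 CPM in shIFITM3, against 76.4, 73.7 and 77.6 CPM in shControl, so that every knockdown sample lay below every control, yet the test was not passed (-0.08, edgeR adjusted p = 0.158).

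The scaRNA hosts rested on few counts, and they were not tested against the snoRNA hosts. SNHG20 (chromosome 17, 77088643 to 77094986), host of SCARNA16, had 3.50, 5.26 and 4.39 CPM in shIFITM3, against 1.84, 3.07 and 2.55 CPM in shControl (0.76, SE 0.21, edgeR adjusted p = 0.00298). Its exons overlap on the same strand with SEC14L1, a lipid-transfer family gene that rose by 1.41 to 189.9 ± 5.75 CPM in shIFITM3 against 71.5 ± 2.52 CPM in shControl, so the reads of these genes cannot be told apart where they overlap. SNHG21 (chromosome 15), host of SCARNA15, had 1.68, 1.57 and 1.38 CPM in shIFITM3, against 1.18, 0.766 and 0.803 CPM in shControl (0.80, edgeR adjusted p = 0.032). SNHG22 (chromosome 18), host of SCARNA17, had 4, 16 and 7 counts in shIFITM3 and 16, 75 and 26 counts in shControl, which is 0.182, 0.696 and 0.293 CPM against 0.754, 0.974 and 0.949 CPM (-1.21, SE 0.44, edgeR adjusted p = 0.022). Neither pair of ranges overlapped. SNHG21 lost its call without shIFITM3 replicate 1 or 2 or shControl replicate 2 or 3 (adjusted p up to 0.156), and SNHG22 without shIFITM3 replicate 1 or 3 or shControl replicate 2 or 3 (up to 0.119). SNHG21 overlaps FSD2 and SNHG22 overlaps MYO5B on the opposite strand. SNHG10, host of SCARNA13, had a log2 fold change of 0.31 that did not pass (SE 0.26).

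The other SNHG RNAs that did not pass lay between -0.11 for SNHG4 and 0.24 for SNHG12 on the log2 scale. SNHG12, host of 4 snoRNAs, had 9.86, 8.91 and 12.1 CPM in shIFITM3 and 9.10, 8.96 and 8.06 CPM in shControl, with ranges that just overlapped (edgeR adjusted p = 0.0919). SNHG15 was at 16.7 ± 0.307 CPM in shIFITM3 and 17.6 ± 1.12 CPM in shControl, SNHG6 at 14.6 ± 2.51 and 13.2 ± 1.17 CPM, and SNHG3 at 12.8 ± 1.27 and 12.3 ± 0.558 CPM (SD, n = 3 each). SNHG8, SNHG5 and SNHG11 were at 11.7 ± 0.573, 8.70 ± 1.37 and 7.49 ± 0.50 CPM in shIFITM3 and at 10.4 ± 1.01, 9.15 ± 0.531 and 7.53 ± 0.159 CPM in shControl. SNHG4, SNHG19 and SNHG9 were at 4.29 ± 0.607, 4.01 ± 0.44 and 1.97 ± 0.167 CPM in shIFITM3 and at 4.65 ± 0.489, 3.48 ± 0.163 and 1.78 ± 0.202 CPM in shControl. In all of these the ranges of the groups overlapped.

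The pyrimidine run shown above was not a feature of the hosts that were called. A run of at least 5 pyrimidines starting with C at the start in that table was present in 4 of 15 SNHG RNAs with a promoter in the table (26.7%), which are SNHG12, SNHG4, SNHG19 and SNHG5 with runs of 11, 13, 6 and 5 bases. None of these 4 passed the test, and the run of SNHG12 is read at its inner start. It was present in 2 of 98 LINC RNAs (2.04%, LINC00672 and LINC01534), in 5.18% of the promoters of tested genes, in 4.04% of all promoters in the table and in 62.9% of 62 tested ribosomal protein genes. SNHG1 and SNHG7 have 3 and 4 pyrimidines at the same place and SNHG17 none, as read at the start in the table, which may differ from the start used in PC-9.

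Hosts outside the SNHG names were set beside them. Of 4 noncoding hosts with other names, DANCR rose (0.15, edgeR adjusted p = 0.0408), to 60.2, 51.0 and 51.3 CPM in shIFITM3, against 52.0, 48.3 and 46.0 CPM in shControl. These ranges overlapped, and the adjusted p lay just under the threshold. EPB41L4A-AS1 rose with no overlap (0.60, edgeR adjusted p = 0.00406), while GAS5 (0.11) and ZFAS1 (0.01) did not pass. Among 33 tested protein genes that host snoRNAs 1 rose and 22 fell, with a median log2 fold change of -0.13. NOP56, a core protein of the snoRNA particles themselves, fell by 0.61, to 202, 211 and 207 CPM in shIFITM3, against 327, 305 and 316 CPM in shControl. HSPA9, a mitochondrial chaperone (-0.48), CCT6A, a subunit of the cytosolic chaperonin (-0.40), and NCL, the nucleolar protein nucleolin (-0.37), also fell, with edgeR adjusted p values no higher than 7.64e-12, and TAF1D (0.21) was the host that rose. The SNHG RNAs had fewer counts, with a median of 9.21 CPM against 561 CPM in the protein hosts, of which 69.7% passed, a share near the 69% among all genes over 20 CPM that are not members. The spliced SNHG transcripts are known targets of nonsense-mediated decay, and of 10 factors of that pathway SMG5 (-0.16) and UPF1, the central helicase (-0.09), fell, while 7 did not pass.

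The LINC RNAs rose more often than they fell. Of 133, 32 rose, 14 fell and 87 did not pass (34.6% called, 24.1% higher and 10.5% lower), with a median log2 fold change of 0.19. Genes that are not members leaned the same way, with 25.4% higher and 18.1% lower between the 10th and 90th percentiles of the members' level. Under 1 CPM 16.5% of them were higher and 5.12% lower, and at 1 to 5 CPM 21.5% and 12.5%. At 5 to 20 CPM 28.9% were higher and 22.3% lower, and over 20 CPM 30.5% and 38.4%. Together the LINC RNAs took 0.152%, 0.146% and 0.151% of the counts of the library in shIFITM3, against 0.127%, 0.126% and 0.125% in shControl. Much of this sum is LINC00657 alone, which made up 29.6%, 28.9% and 29.5% of the counts of all 153 RNAs in shIFITM3 and 26.7%, 26.5% and 25.9% in shControl. Without LINC00657 and NEAT1 the 153 RNAs took 0.127%, 0.123% and 0.126% of the library in shIFITM3, against 0.116%, 0.115% and 0.116% in shControl, so the groups still did not overlap.

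LINC00657, now named NORAD (chromosome 20, 36045618 to 36050960), is a cytoplasmic RNA that binds Pumilio proteins, which repress messenger RNAs, and guards chromosome stability. It had 599, 550.4 and 587 CPM in shIFITM3, against 457, 447 and 434 CPM in shControl (0.38, SE 0.033, edgeR adjusted p = 7.96e-10). All knockdown samples lay above all controls. Per kilobase of exon it was also the most abundant of the members placed in GENCODE 29, at 108 CPM in shIFITM3 and 83.6 CPM in shControl, followed by LINC00674 at 53.8 and 35.8 CPM and LINC00942 at 36.2 and 29.6 CPM. LINC00942 had 77.2, 80.8 and 81.8 CPM in shIFITM3, against 65.8, 64.9 and 65.4 CPM in shControl (0.29, edgeR adjusted p = 6.67e-06). LINC00674 had 42.9, 36.3 and 39.4 CPM in shIFITM3, against 23.9, 27.2 and 27.7 CPM in shControl (0.58, edgeR adjusted p = 2.37e-07). Of the 10 LINC RNAs with the highest CPM, 7 rose, 1 fell and 2 did not pass. LINC01000 (0.35), LINC00094 (0.28, with exon bases shared with BRD3 on the opposite strand) and LINC00707 (0.19) rose by less than LINC00674, and the LINC00707 call ended without shIFITM3 replicate 3 (edgeR adjusted p = 0.0525). LINC01234 stayed within its spread, with 32.1, 32.2 and 34.1 CPM in shIFITM3 and 32.2, 33.1 and 33.4 CPM in shControl (-0.01).

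Some LINC symbols cover genes that are now known to encode proteins. RefSeq lists 9 of the 153 as protein-coding and 1 as a transcribed pseudogene, and 33 of the 153 symbols are older names. Of the 9, 2 rose, 2 fell and 5 did not pass. LINC00998 is SMIM30, a small membrane protein gene, and fell, with 27.0, 28.4 and 25.9 CPM in shIFITM3, against 33.6, 31.5 and 34.6 CPM in shControl (-0.29, edgeR adjusted p = 0.000764). LINC00493 is SMIM26, another small integral membrane protein gene, and rose, with 27.6, 24.9 and 25.7 CPM in shIFITM3, against 20.2, 20.2 and 18.5 CPM in shControl (0.41). The groups did not overlap in either. LINC01420 is NBDY, whose microprotein is part of the bodies in which messenger RNA is decapped, and did not pass (0.08, with 39.0, 39.0 and 37.3 CPM in shIFITM3 and 33.8, 37.6 and 37.3 CPM in shControl). LINC01279 is an older symbol of CCDC80, a secreted matrix protein gene, yet the table also has a CCDC80 row. Both rows fell, LINC01279 by 0.69 to 4.84 ± 0.295 CPM in shIFITM3 against 7.84 ± 0.44 CPM in shControl, and CCDC80 by 0.96 to 105 ± 4.85 CPM in shIFITM3 against 205 ± 5.89 CPM in shControl.

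Among LINC RNAs that rose, LINC00883 and LINC01468 were those over 10 CPM with more than a 2-fold change. LINC01468 (chromosome 10, 52450877 to 52470533, minus strand) is now LNCAROD, named as an activating regulator of DKK1, the gene of a secreted WNT antagonist. It had 46.3, 41.7 and 42.6 CPM in shIFITM3, against 20.5, 19.6 and 21.2 CPM in shControl (1.10, SE 0.066, edgeR adjusted p = 8.37e-13). DKK1 was also the nearest tested gene, 133220 bases away, and had 336 ± 5.67 CPM in shIFITM3 and 146 ± 3.64 CPM in shControl (1.202, SE 0.034). LINC00883 (chromosome 3, 107240692 to 107326964) is now DUBR, first described in mouse muscle cells. It had 19.9, 18.2 and 17.7 CPM in shIFITM3, against 7.26, 8.20 and 9.16 CPM in shControl (1.18, SE 0.10, edgeR adjusted p = 7.09e-10). All knockdown samples lay above all controls in both RNAs, and the nearest tested gene of LINC00883, the HMG-box gene BBX, fell by 0.25.

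The other large rises were of RNAs near 1 CPM. LINC01569 (chromosome 16) had 26, 30 and 14 counts in shIFITM3 and 4, 27 and 7 counts in shControl, which is 1.18, 1.30 and 0.586 CPM against 0.189, 0.351 and 0.255 CPM (1.80, SE 0.44, edgeR adjusted p = 0.00113). LINC00525 (chromosome 7) had 1.18, 0.652 and 1.17 CPM in shIFITM3, against 0.283, 0.429 and 0.219 CPM in shControl (1.55, SE 0.42). The knockdown sample nearest to the controls differed between them, replicate 3 for LINC01569 and replicate 2 for LINC00525, and neither overlapped. LINC00482 (1.35), LINC01127 (1.32), LINC00342 (1.27) and LINC00638 (1.05) also rose with no overlap, and LINC01003, at 4.57 ± 0.101 CPM in shIFITM3 and 2.56 ± 0.151 CPM in shControl, rose by 0.84. LINC00239 (0.99, edgeR adjusted p = 0.0212) had a knockdown sample at 0.818 CPM, inside the control range of 0.471 to 0.844 CPM. LINC00638 lost its call without shIFITM3 replicate 1 (adjusted p = 0.073), and LINC00239 without shIFITM3 replicate 2 or 3 or shControl replicate 1 or 3 (up to 0.105). LINC00152, now CYTOR, an RNA named for its effect on the cytoskeleton, rose by 0.43, with 23.9, 24.9 and 24.3 CPM in shIFITM3, against 17.4, 18.3 and 18.5 CPM in shControl.

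Among LINC RNAs that fell, LINC00857 had the largest change of those over 10 CPM. LINC00857 (chromosome 10, 80207710 to 80219657) had 15.2, 16.5 and 17.3 CPM in shIFITM3, against 29.8, 29.05 and 29.5 CPM in shControl (-0.85, SE 0.075, edgeR adjusted p = 9.43e-10). LINC01508 (chromosome 9, 90300896 to 90433489) had the largest fall, with 10, 9 and 4 counts in shIFITM3 and 38, 149 and 45 counts in shControl, which is 0.454, 0.391 and 0.167 CPM against 1.79, 1.94 and 1.64 CPM (-2.42, SE 0.37, edgeR adjusted p = 5.24e-06). Of its 255 counts 232 came from shControl, so it met the rule through the group in which it is high, as did LINC01559, LINC00865 and SNHG22. In LINC00857 and LINC01508 the controls lay close together and no knockdown sample came near them. LINC01559 (chromosome 12) had 0.363, 0.435 and 0.251 CPM in shIFITM3, against 0.990, 1.27 and 1.09 CPM in shControl (-1.70, edgeR adjusted p = 0.000692). LINC01133 (chromosome 1) had 2.09, 1.91 and 1.51 CPM in shIFITM3, against 5.14, 4.75 and 4.63 CPM in shControl (-1.40, edgeR adjusted p = 1.13e-06). Further falls were those of LINC00865 (-1.08), LINC01269 (-0.89), LINC01515 (-0.73) and LINC00467 (-0.62), again with no overlap between the groups. LINC00865, with 0.588 ± 0.293 CPM in shIFITM3 and 1.19 ± 0.276 CPM in shControl, lost its call without shIFITM3 replicate 2 or 3 or shControl replicate 2 (edgeR adjusted p up to 0.166).

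**Figure D4:**
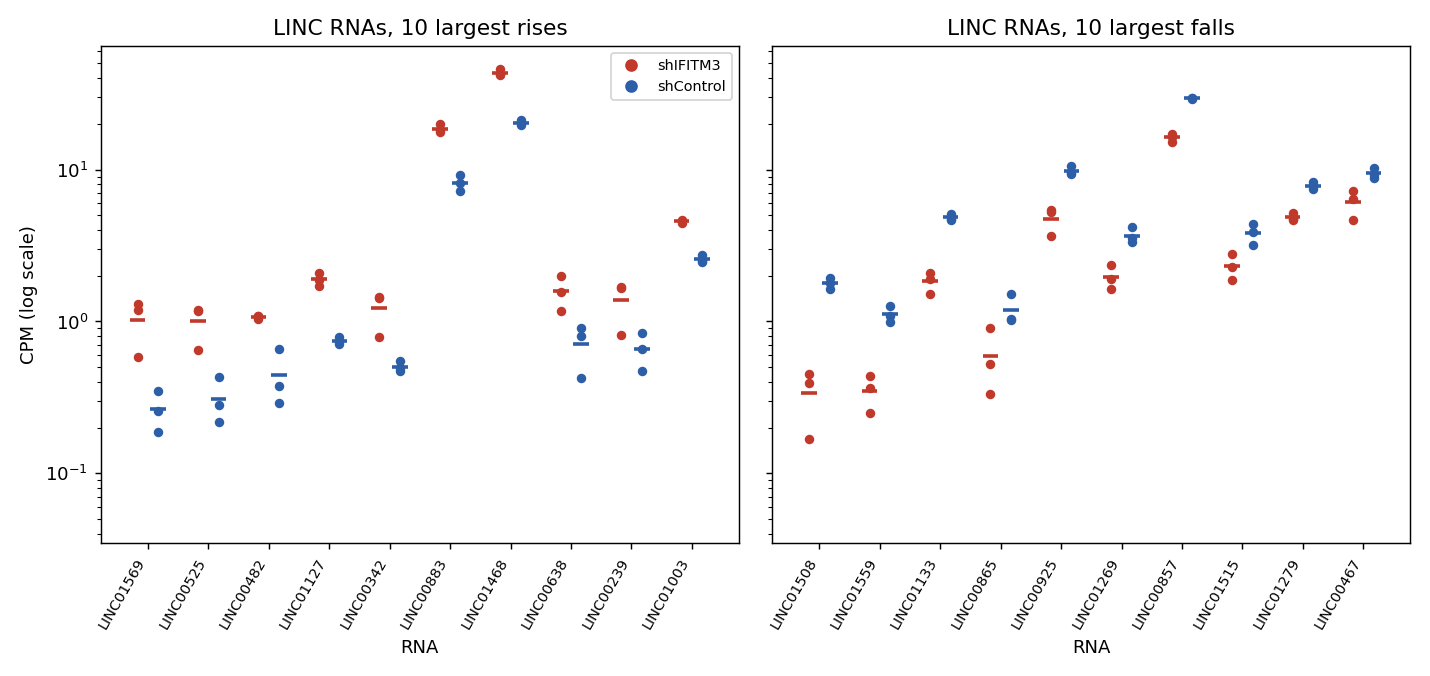
CPM (log axis) of the LINC RNAs with the 10 largest rises and the 10 largest falls, with a point for each sample and a bar at the group mean of 3 samples, shIFITM3 in red left of shControl in blue. The groups are separate in every RNA shown except LINC00239, and the spread within a group is widest under 2 CPM.

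LINC00925, now MIR9-3HG (chromosome 15, 89361579 to 89398488), is the host of a precursor of miR-9, a microRNA best known from the nervous system. It had 3.63, 5.26 and 5.40 CPM in shIFITM3, against 9.47, 9.30 and 10.6 CPM in shControl (-1.03, SE 0.14, edgeR adjusted p = 1.06e-06). All knockdown samples lay below all controls. The mature microRNAs, from RefSeq on GRCh38.p14 with the seed (bases 2 to 8) in capitals, are shown because they are the known product of this host, and their own level was not measured.
hsa-miR-9-5p, plus strand, chr15:89368032-89368054: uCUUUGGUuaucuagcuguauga
hsa-miR-9-3p, plus strand, chr15:89368071-89368092: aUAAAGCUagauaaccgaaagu
The hairpin MIR6516 lies inside SNHG20, and 3 further LINC members (LINC01057, LINC00669 and LINC00969), none of which passed the test, hold microRNA hairpins.

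The nearest tested gene that is no member was compared with each RNA to see whether neighbours moved together. Of 152 RNAs with such a neighbour, 85 had the same sign of log2 fold change as the neighbour and 67 the opposite. For SNHG1, SNHG12, SNHG15 and LINC00969 the neighbour is a snoRNA or microRNA entry that overlaps the RNA itself. Some other pairs, such as SNHG20 with SEC14L1 and SNHG3 with RCC1, share exon bases on the same strand. Such pairs may share reads, so their signs are not independent. Pearson's r over the 152 pairs was 0.22 and Spearman's rho 0.27, as a description, since all pairs come from the same 6 libraries. Where both passed the test, 20 of 33 pairs had the same sign. LINC01468 and DKK1 rose together, and so did LINC01127 (1.32) and IL1R2 (0.71), a decoy receptor of interleukin-1 whose gene lies 6415 bases away. LINC00857 and ANXA11 (-0.33), an annexin gene 1902 bases away, fell together, as did LINC01133 and SLAMF9 (-1.05), which overlap in position. LINC00657 rose beside a fall of EPB41L1 (-0.67), a membrane skeleton gene, and LINC00525 beside a fall of TNS3 (-0.27), a focal adhesion gene. The neighbours of LINC01508 (SYK, 0.13), LINC01569 (TFAP4, -0.10), LINC00925 (POLG, 0.09) and LINC01003 (KMT2C, -0.02) did not pass.

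**Figure D5:**
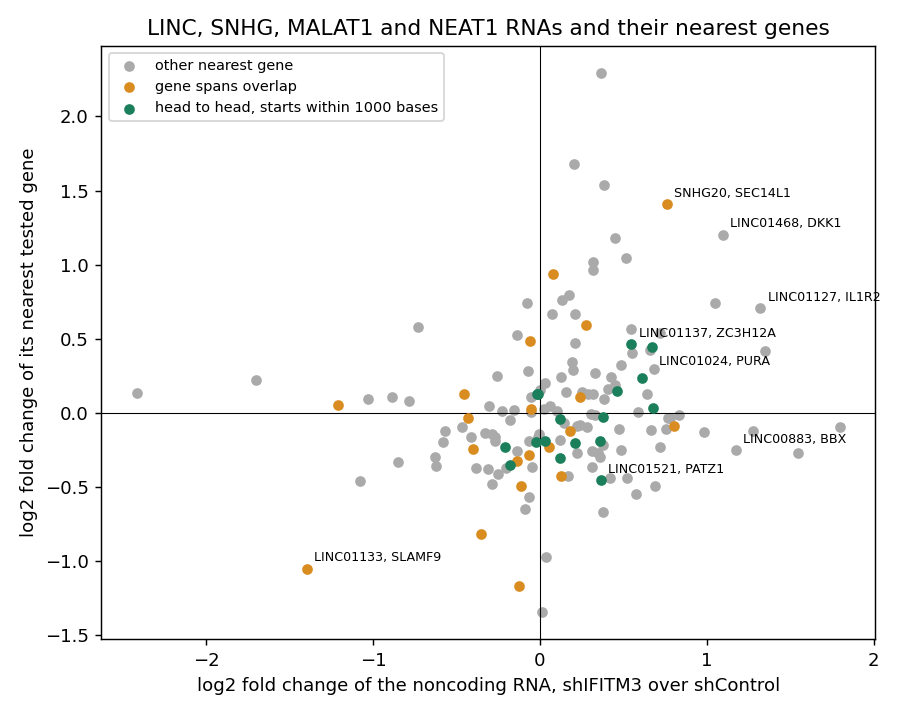
Log2 fold change of the nearest tested gene against that of the RNA itself, both shIFITM3 over shControl, for 152 RNAs, with overlapping genes in orange and genes that start head to head within 1000 bases in green. Points fill all 4 quadrants (85 with the same sign, 67 with the opposite), and SNHG20 with SEC14L1 and LINC01468 with DKK1 lie at the upper right.

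Head-to-head pairs, transcribed away from each other from starts at most 1000 bases apart, numbered 17, of which 8 had the same sign and 9 opposite signs. Pearson's r over these 17 pairs was 0.58 and Spearman's rho 0.57, a description of pairs from the same 6 libraries. In 4 of them both genes passed. LINC01137 and ZC3H12A, the gene of an RNase that degrades messages of inflammatory cytokines, start 141 bases apart and rose by 0.55 and 0.47. LINC01137 had 6.09, 6.74 and 5.78 CPM in shIFITM3, against 3.82, 4.40 and 4.38 CPM in shControl, with no overlap, and ZC3H12A had 16.3 ± 0.718 and 11.7 ± 0.361 CPM. LINC01024 and PURA, a nucleic acid binding protein gene (853 bases apart), rose by 0.67 and 0.44, and LINC01089 and SETD1B, a histone H3 lysine methyltransferase gene (274 bases apart), by 0.46 and 0.15. LINC01089 shares 1724 bases of its exons with RHOF on the same strand, where the reads of these genes cannot be told apart. LINC01521 and PATZ1, a zinc finger gene (545 bases apart), moved apart, LINC01521 rising by 0.36 and PATZ1 falling by 0.45. Without shIFITM3 replicate 3 or shControl replicate 3 LINC01089 lost its call, and without shIFITM3 replicate 2, shControl replicate 1 or shControl replicate 2 LINC01521 did (edgeR adjusted p up to 0.0854 and 0.0945).
The promoter of LINC01137, from 250 bases before to 50 after its start in RefSeq, is printed because it also holds the start of ZC3H12A. Capitals mark a TATA box match on the opposite strand, the only match here to the motifs searched.
LINC01137, minus strand, chr1:37474394-37474693: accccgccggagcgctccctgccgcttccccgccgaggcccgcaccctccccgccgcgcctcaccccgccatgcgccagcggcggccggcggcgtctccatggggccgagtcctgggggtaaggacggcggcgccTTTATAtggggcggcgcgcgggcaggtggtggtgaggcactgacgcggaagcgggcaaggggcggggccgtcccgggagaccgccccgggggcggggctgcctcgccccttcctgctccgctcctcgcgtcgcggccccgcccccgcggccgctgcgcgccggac

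Promoters of 114 of the 153 RNAs were in the RefSeq table and were searched on both strands. The TATA box letters TATAAA were found in 13.2% of them, beside 5.56% of the promoters of tested genes and 12% of all 27305 RefSeq promoters. CCAAT was found in 43%, beside 36.1% and 35.7%. The median share of G and C bases was 60.3% in these promoters, 65.3% in those of tested genes and 58.3% in all. Beside the promoters of tested genes, the E-box CACGTG was found in 8.77% against 9.87%. The FOXO motif TGTTTAC was found in 1.75% against 2.22% and the sterol element TCACNCCAC in 0.877% against 1.09%. Within the RNAs with a promoter, TATAAA was found in 16% of the 25 that rose, 21.4% of the 14 that fell and 10.7% of the 75 that did not pass, and CCAAT in 24%, 35.7% and 50.7%. The shares of the small groups rest on 3 to 6 promoters.

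Other long noncoding RNAs outside the naming rule were read from the same fit. Of 18 tested, 7 rose and 5 fell (66.7%, beside 56.1% of all tested genes), with a median log2 fold change of 0.02. MIR22HG, the host of miR-22, rose to 45.8, 45.7 and 45.4 CPM in shIFITM3, against 25.4, 23.1 and 24.05 CPM in shControl (0.93), and TUG1 to 262, 245 and 255 CPM against 198, 197 and 192 CPM (0.38). LINC-PINT (1.34) and HCP5, which lies in the HLA class I region (1.05), rose as well, and the edgeR adjusted p was no higher than 2.67e-07 in these 4. The groups did not overlap in any of these 4. The 5 that fell were MIR210HG (-1.79), DLEU2 (-0.99), HOTAIR (-0.71), TINCR (-0.43) and MIR31HG (-0.26), and the ranges overlapped in TINCR and MIR31HG. MIR210HG had the largest change of the list, at 0.376 ± 0.121 CPM in shIFITM3 against 1.33 ± 0.233 CPM in shControl (edgeR adjusted p = 0.000355).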

How the data were processed

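Raw counts of reads for each gene symbol were deposited by the authors in 1 table of all 6 samples, as whole numbers that had not been scaled. Reads were aligned to build hg38 and counted with tools that include HISAT2 2.2.1, Subread 2.0.6 (featureCounts), fastp 0.23.4, SAMtools 1.20 and FastQC 0.12.1, per the submitters' processing notes. Which annotation was used, and whether counting used strand, is not given in the sources read, so genes that overlap may share reads, also across strands. In GENCODE 29, which placed 143 of the 153 RNAs, 29 share exon bases with another tested gene, 7 on the same strand and 23 on the opposite strand.

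The 153 RNAs, the lists of related genes and the tests were chosen with earlier results of these data known. Counts were fitted in R 4.3.3 with edgeR 4.0.16 (filterByExpr by group, TMM, glmQLFit, two-sided glmQLFTest on group alone) over 14018 genes, with Benjamini-Hochberg adjustment over all of them. A gene is said to rise or fall only at an adjusted p under 0.05. SE was computed from the log2 fold change and the square root of the F statistic. The test was first tried on simulated counts. P-values measure the spread between these samples, which the labels call biological replicates.

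Alternatives were RLE and upper-quartile scaling, no filter, a filter of at least 50 counts in 3 samples, DESeq2 1.42.0, limma-voom (limma 3.58.1), the replicate number as a block, a test against a 1.5-fold change, thinning of shControl replicate 2 to 23503327 counts, leaving out each sample, and other member thresholds. Chosen after seeing the data were counts halved and rounded up, leaving out members with overlapping exons, and leaving out members that RefSeq does not list as lncRNA.

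Named by rule are MALAT1, NEAT1, all SNHG RNAs, the 10 largest rises and falls and the 10 highest levels among LINC RNAs, IFITM3, up to 4 genes of each related list by smallest p, and the neighbours of those LINC RNAs. Other genes named (such as LINC00152, LINC00493, the head-to-head pairs, and the genes that moved least or not at all in the related lists) were chosen after their values were seen. Symbols matched RefSeq on GRCh38.p14, 120 as current and 33 as older names. Coordinates are RefSeq gene ends, and per-kilobase levels use the union of GENCODE 29 exons. Some genes of the related and marker lists are not reported here. Figures were drawn with matplotlib 3.10.9.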

Additional observations from a re-analysis of the deposited data

How the results depend on the processing

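The counts of RNAs that rose or fell kept within 1.5 times their main value under RLE and upper-quartile scaling, no filter, the strict filter, DESeq2, limma-voom and thinning of the deepest library. All members together gave 29 to 35 higher and 13 to 17 lower when each sample was left out in turn, against 36 and 17. In those fits 27.5% to 32% of the members passed, beside 50.1% to 53% of all tested genes. Of the 53 RNAs called, 34 kept their call in all 6 of those fits and 19 lost it in at least 1. SNHG RNAs that rose numbered 1 to 3 in those fits and those that fell 1 to 3, and without shControl replicate 2 they numbered 1 and 1. Against a 1.5-fold change, 4 members were higher and 5 lower (5.88%), all of them LINC RNAs. Among all 14018 tested genes 7.95% passed this test, 807 higher and 308 lower. It gave 0 SNHG RNAs in either direction, and NEAT1 (0.68) no longer passed (edgeR adjusted p = 0.153). The 4 higher were LINC01569, LINC01127, LINC00883 and LINC01468, and the 5 lower LINC01508, LINC01559, LINC01133, LINC00925 and LINC00857. Of these, LINC01508 and LINC01559 met the rule through shControl, and LINC01127 through shIFITM3, each the group in which it is high. Without the members whose exons overlap a tested gene, 0 SNHG RNAs were higher and 1 lower, since fewer RNAs were left, and LINC RNAs gave 30 and 14. The cause of the other differences was not tested.

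MALAT1 passed with no filter (0.15, adjusted p = 0.0137), with the replicate block (0.14, 0.0469) and with halved counts (0.17, 0.0472), and ranged from 0.075 to 0.25 when each sample was left out. Signs turned only in genes that did not pass: ZFAS1 under upper-quartile scaling (-0.0095), SNHG11 (0.0011) and LINC01234 (0.0071) under the strict filter, and LINC01234 with halved counts (0.00051). Leaving out each sample gave -0.011 to 0.23 for SNHG6, -0.035 to 0.0079 for LINC01234, -0.066 to 0.028 for SNHG11, -0.15 to 0.060 for SNHG5, -0.022 to 0.12 for SNHG3, -0.015 to 0.032 for ZFAS1, -0.23 to 0.068 for ANKRD36C and -0.070 to 0.012 for KMT2C.

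Samples with the same replicate number did not deviate together (correlations over 14018 genes of 0.016, 0.033 and 0.0063), so the numbers were not taken as pairs. With the replicate number as a block 37 members were higher and 16 lower (34.6%, beside 56.1% of all tested genes), and 52 of the 53 calls were shared. With the libraries scaled before the counts were summed, 155 RNAs met the threshold, 38 of them higher and 17 lower. Depth limits the low RNAs: 96 of the 153 RNAs averaged under 5 CPM, where the median SE was 0.26 or more.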
